A study of Mus musculus with 20 samples.

Results

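Diplotene spermatocytes, the last cells of meiotic prophase, were compared with round spermatids, the haploid cells that both meiotic divisions leave behind. Messenger RNA of cells sorted from mouse testis was measured on Affymetrix MOE430 v2.0 arrays, with 2 arrays titled as sorted diplotene and 4 titled as sorted round spermatids, of 20 arrays from 8 fractions in all. Every sample of either group was testis of adult male C57BL/6 x DBA/2J F1 mice, 10 to 16 weeks old, with no treatment given, and the cells were stained with Hoechst 33342, a DNA dye whose blue and red light separates the stages. The compared features were the 18007 of 45037 probe sets whose log2 signal reached 5 in at least 2 of the 6 arrays, and 10295 genes were each taken by the probe set of highest mean signal. Per the study's methods, propidium iodide was also given to the cells after Hoechst, an RNA pool joined several sorts, a sort usually drew on a few testes, and purity was assessed by immunofluorescence and fluorescence in situ hybridisation. A sort on Hoechst light alone can carry neighbouring cells. The arrays of a group are titled as biological replicates, but nothing ties an array to given animals. The p-values thus measure only the spread between arrays of a fraction, pooled over all 8 fractions and not taken from the 6 arrays alone. Signals are the GC-RMA values of the authors on a log2 scale, the arrays are named in the order of their replicate numbers, and a change is round spermatids minus diplotene.

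In diplotene the synaptonemal complex comes apart while crossovers hold the homologous chromosomes together, and the X and Y chromosomes lie silenced in the sex body. After the divisions the spermatid grows an acrosome from the Golgi and a flagellum from a centriole, and later swaps histones first for transition proteins and then for protamines. Many of these proteins are made days after their transcripts, which are stored bound to protein, so a transcript level here is not a protein level.

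The 6 arrays were alike in scale, with median signals of 11.3 to 12.7 and 34.6% to 36.7% of probe sets at or above log2 5. Signals of all tested probe sets had an array median between 7.58 and 7.93. Of 11 tested marker genes of round spermatids, 7 rose and none fell, with a median change of 2.05, and of 11 marker genes of pachytene and diplotene cells 4 fell and none rose, with a median of -0.26. The spermatid marker rises numbered 4 without diplotene replicate 1. The spermatid markers were also measured in the diplotene fraction, where their median signal was 22.3% and 24.1% of the spermatid mean in the 2 arrays, against 6.94% in the late-pachytene array. In the spermatogonia arrays the same markers ran from 33.9% to 181.5% of the spermatid mean. Whether RNA of spermatids in the diplotene sort takes part in the changes was not tested. Of the Leydig and peritubular markers, 5 of 14 stayed under log2 5 in all 6 arrays, among them Cyp11a1 and Hsd17b3 of steroid synthesis, 3 of the 7 tested rose and none fell (median 1.27), none of which passed without either diplotene array, and the summed signal of the list was 481 to 501 in diplotene and 1365 to 1736 in round spermatid arrays. No Sertoli marker of 9 tested and no macrophage marker of 3 passed the test with all arrays, 1 Sertoli marker fell without diplotene replicate 2, round spermatid replicate 1 or round spermatid replicate 2, and Sertoli sums overlapped between the groups at 2858 to 8487 and 1501 to 8760. Of 8 tested spermatogonial markers 1 fell, and 4 fell without round spermatid replicate 1, and the 1 tested red cell marker did not pass. In bulk samples fewer cells of a type and less RNA per cell cannot be told apart.

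Close to equal numbers of genes rose and fell over this step. At an adjusted p of 0.05 in limma, fitted over all 8 fractions, 2556 probe sets (14.2%) rose in round spermatids and 3156 (17.5%) fell, in all 5712 (31.7%). Counted by gene, 1759 of 10295 (17.1%) rose and 1691 (16.4%) fell. The median change was -0.12 over all tested probe sets and -0.05 over genes. Rises and falls differed in shape, since the called rises had a median of 2.07 with quartiles of 1.45 and 2.49, while the called falls had a median of -1.58 with quartiles of -2.08 and -1.19. The arrays of the groups did not overlap for 46.9% of probe sets and 49.6% of genes. The study's tables give sets of arrays a number, called here the array project, in 2 ways that differ for all 4 round spermatid arrays, and the numbers tied to arrays by equal signals are used except where those of the replicate names are stated. By the names, replicate 1 of round spermatids, spermatogonia, pre-leptotene and leptotene-zygotene has no project number. The fit by replicate names took these arrays as 1 project. The calls rest on few diplotene arrays, since leaving out either one leaves a single array. The median change over all tested probe sets was -0.06 without diplotene replicate 1 and -0.17 without diplotene replicate 2. Over all probe sets, diplotene replicate 1 correlated at 0.988 with the late-pachytene array and at 0.973 with diplotene replicate 2. Diplotene replicate 2 correlated at 0.961 with the late-pachytene array and at 0.955 with round spermatid replicate 3. Centring every array on its median moved the median change to 0.05 and the split to 54.4% rises, against 44.7% as deposited.

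**Figure D1:**
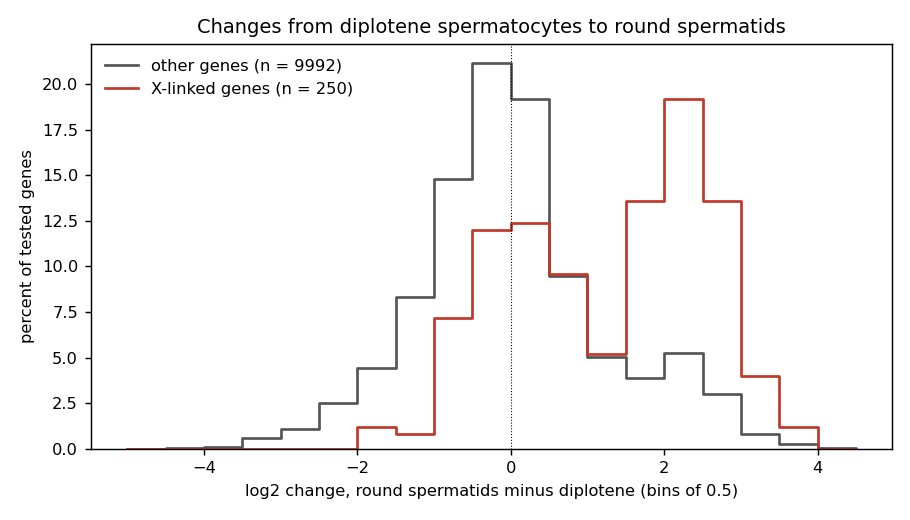
Distribution of the change from diplotene to round spermatids (log2, bins of 0.5) as the percent of genes in each bin, for the 250 tested genes of the X chromosome and for the other tested genes. The X-linked genes gather between 1.5 and 3, while the other genes centre near 0.

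A short motif was more frequent in promoters of genes that rose, which is given as a description with no test. The letters TGACATCA, on the other strand TGATGTCA, resemble the element to which cyclic AMP response factors such as Crem bind in spermatids, TGACGTCA. Within 250 bases before to 50 after the start, TGACATCA on either strand stood in promoters of 109 of 1420 rises (7.68%), 136 of 5642 genes not called (2.41%) and 15 of 1384 falls (1.08%), with 4.18% over all 27025 genes. The palindrome TGACGTCA showed no such order, at 3.73% of rises, 4.01% of genes not called and 3.32% of falls. TGACTTCA with its complement TGAAGTCA stood in 2.61%, 1.19% and 0.795%, and TGACCTCA with TGAGGTCA in 3.87%, 2.09% and 1.59%, of rises, genes not called and falls. No stretch of 8 letters can match more than 1 of the 4 motifs, and they were chosen after values were seen. Of 133 matches to TGACATCA in promoters of rises, 106 began within 100 bases before the start, and no like count was made for falls or genes not called. The following windows, 120 bases before to 30 after a RefSeq start on GRCm38.p6, are picked examples that each hold a motif, unlike most promoters of rises. They belong to some of the risen genes that the text names: Tnp1 (chr1:73015870-73016019, minus strand), Prm1 (chr16:10796794-10796943, minus strand), Akap3 (chr6:126852978-126853127, plus strand), Akap4 (chrX:7067395-7067544, plus strand) and Spaca7 (chr8:12572916-12573065, plus strand). Capitals mark the motif, which begins 94 bases before the start in Tnp1, 64 in Prm1, 22 and 1 in Akap3, 35 in Akap4 and 34 in Spaca7.
Tnp1: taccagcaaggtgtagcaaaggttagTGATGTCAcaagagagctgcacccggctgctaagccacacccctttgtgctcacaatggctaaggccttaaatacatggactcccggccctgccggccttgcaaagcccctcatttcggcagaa
Prm1: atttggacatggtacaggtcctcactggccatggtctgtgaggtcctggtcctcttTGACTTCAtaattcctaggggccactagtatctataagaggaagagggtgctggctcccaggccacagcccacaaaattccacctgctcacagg
Akap3: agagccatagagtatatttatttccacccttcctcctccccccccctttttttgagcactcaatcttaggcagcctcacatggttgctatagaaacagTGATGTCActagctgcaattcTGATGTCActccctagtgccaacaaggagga
Akap4: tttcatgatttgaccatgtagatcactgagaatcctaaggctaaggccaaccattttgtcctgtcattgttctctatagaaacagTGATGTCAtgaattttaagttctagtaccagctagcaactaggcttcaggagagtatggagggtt
Spaca7: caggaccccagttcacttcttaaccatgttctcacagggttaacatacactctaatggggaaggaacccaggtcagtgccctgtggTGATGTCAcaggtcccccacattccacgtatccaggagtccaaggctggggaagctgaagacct
Prm1 carries the TGACTTCA form and the others TGATGTCA. The window of Prm2, which also rose, held none of the 4 motifs, nor did the second Akap4 promoter in RefSeq. A match is a description of letters and not a site in use.

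Of 14 tested genes for spermatid nuclear proteins, 11 rose and none fell, with a median change of 2.19 against -0.05 over all genes. Tnp1 and Tnp2 are the transition proteins that first displace histones. Tnp1 stood at 12.43 and 12.18 in diplotene and 14.83, 13.95, 14.23 and 14.26 in round spermatid arrays. Tnp2 stood at 11.85 and 11.75 in diplotene and 14.44, 13.47, 13.96 and 14.03 in round spermatid arrays. No round spermatid array came down to a diplotene array for either gene. Tnp1 rose by 2.01 (standard error 0.45, adjusted p = 0.0036) and Tnp2 by 2.17 (standard error 0.52, adjusted p = 0.00504). The protamine Prm1 lay at 12.98 and 12.75 in diplotene and 14.93, 14.23, 14.30 and 14.62 in round spermatid arrays. Prm2 lay at 12.44 and 11.91 in diplotene and 14.55, 13.52, 13.84 and 13.78 in round spermatid arrays. Both protamines were thus already strong before the divisions, and neither overlapped between the groups. Prm1 rose by 1.66 (standard error 0.38, adjusted p = 0.00406) and Prm2 by 1.75 (standard error 0.46, adjusted p = 0.00934), and Prm3 rose by 2.07 (standard error 0.73, adjusted p = 0.0417). The histone variants H2al2a and H2al3, which pack spermatid chromatin, rose by 2.45 and 2.59, and H1f7, a linker histone of spermatids, rose by 2.21. Hmgb4, a high mobility group protein of germ cells, rose by 2.21, the remodeller Chd5 by 2.00 and the chaperone Hspa1l by 2.32. H2bl1 at 2.35 (adjusted p = 0.0902) and Spem1 at 2.50 (adjusted p = 0.0584) did not pass. With the array project as a block H2bl1 passed (adjusted p = 0.0178), and with the projects by replicate names both did (0.0205 and 0.021). H2bl1 and Spem1 also passed in limma with the 6 arrays fitted alone (adjusted p = 0.036 and 0.00643). H1f6, the linker histone of pachytene spermatocytes, differed by only 0.29 (standard error 0.36, adjusted p = 0.607). In the spermatogonia arrays the median signal of the list ran widely, at 149.4%, 193.6%, 56.1% and 28.5% of the spermatid mean. It was 13.1% to 20.2% in pre-leptotene arrays. Whether RNA carried over from other cells takes part in these levels was not tested. Prm1 had a mean of 14.74 in spermatogonia, 11.95 in late-pachytene, 12.86 in diplotene and 14.52 in round spermatid arrays. Of the 11 rises, 4 passed without diplotene replicate 1, 4 without diplotene replicate 2 and 7 without round spermatid replicate 1.

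Acrosome and gamete fusion genes rose in number, with 22 of 36 tested members up, 2 down and a median change of 2.13. Izumo1, the sperm protein that meets the egg receptor, had 8.48 and 10.22 in diplotene and 11.54, 12.02, 12.04 and 11.99 in round spermatid arrays. All 4 spermatid arrays were above both diplotene arrays, and the change was 2.54 (standard error 0.69, adjusted p = 0.0111). Zan, which codes for zonadhesin, had 5.39 and 6.48 in diplotene and 8.69, 9.19, 8.87 and 8.39 in round spermatid arrays, and rose by 2.85 (standard error 0.35, adjusted p = 4.59e-05). Spaca6, needed for fusion with the egg, rose by 2.82 (standard error 0.70, adjusted p = 0.00654), and Tmem190, an inner acrosomal membrane protein, by 2.77 (standard error 0.72, adjusted p = 0.00843). The change of Spaca6 was 1.62 without diplotene replicate 1, and its call was lost with the 6 arrays fitted alone (limma adjusted p = 0.054). Spaca7 rose by 2.24 and the hyaluronidase gene Spam1 by 2.10, both singled out for their role. Acr, the protease proacrosin, which pachytene cells already transcribe, did not pass and lay at 12.55 and 12.87 in diplotene and 12.68, 12.95, 13.13 and 12.80 in round spermatid arrays, so that its groups overlapped. Acrv1, the acrosomal antigen used to stage spermatids, was 2.03 higher but missed the threshold (adjusted p = 0.0754). The 2 falls were Izumo4, at -2.12, and Tex101, a surface protein of germ cells. Tex101 had 11.98 and 12.83 in diplotene and 8.85, 9.65, 9.33 and 8.13 in round spermatid arrays, and it fell by 3.42 (standard error 0.75, adjusted p = 0.00302). Without diplotene replicate 1, 4 of the list rose and 2 fell, and without diplotene replicate 2, 18 rose and 1 fell.

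Flagellar genes were counted apart for the sheath and the core, and the difference between these counts was not tested. Of 18 genes for fibrous sheath and outer dense fibres 10 rose and none fell (median 1.79), and of 39 genes for the axoneme, the microtubule core with its dyneins, 1 rose and 1 fell (median 0.19). Akap4, the main scaffold of the fibrous sheath, lies on the X chromosome and had 10.07 and 10.14 in diplotene and 12.99, 12.33, 12.36 and 12.55 in round spermatid arrays. It rose by 2.45 (standard error 0.61, adjusted p = 0.00649), and Akap3, its autosomal partner, rose by 1.96 (standard error 0.58, adjusted p = 0.0182). Cabyr, a calcium binding protein of the sheath, had 9.25 and 9.74 in diplotene and 12.36, 11.94, 12.14 and 11.58 in round spermatid arrays, a rise of 2.51 (standard error 0.44, adjusted p = 0.000649). Odf3 of the outer dense fibres rose by 2.41 and Gapdhs, the sperm form of a glycolytic enzyme held on the sheath, by 2.27. Only 1 of the 10 rises passed without diplotene replicate 1, 3 passed without diplotene replicate 2 and 6 without round spermatid replicate 1. In the axoneme, Dnah9, a dynein heavy chain, rose by 1.88, or by 0.57 where values under 5 were raised to 5, a setting in which its call was lost (adjusted p = 0.0894). Spef1, a microtubule bundler, fell by 0.90 (standard error 0.27, adjusted p = 0.0179), a call lost without diplotene replicate 1, with the 6 arrays fitted alone and with the projects by replicate names. In each of the latter 2 fits, and with arrays centred on their medians, 4 axonemal genes rose, and the list's median was -0.09 with the project by equal signals and 0.65 with that by names. The tektins, filament proteins of the doublets, did not pass, with changes of 0.74 for Tekt1, 1.35 for Tekt2, 0.92 for Tekt3, 1.91 for Tekt4 and -0.01 for Tekt5. With the array project as a block Tekt2 passed (adjusted p = 0.0436), and with the projects as the replicate names give them Tekt2 (0.0338) and Tekt4 (0.0463) did. Tekt2 and Tekt4 also passed with the 6 arrays fitted alone (limma adjusted p = 0.0141 and 0.00995). None of the 4 centrins, calcium binding proteins of the centriole, passed by its strongest probe set. Cetn1, the germline centrin, had 13.90 and 14.13 in diplotene and 13.63, 13.62, 14.24 and 13.94 in round spermatid arrays, and Cetn2, Cetn3 and Cetn4 changed by 0.90, -0.0041 and 0.12. A weaker probe set of Cetn2 rose by 2.47 (adjusted p = 0.000395), from a diplotene mean of 3.16, under log2 5, to a spermatid mean of 5.63. With the project by equal signals as a block the stronger Cetn2 probe set rose by 1.31 (adjusted p = 0.00205), while by replicate names no centrin passed.

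Of 7 testis-specific serine kinases and their substrate 5 rose and none fell, with a median of 2.23. Tssk4 had 7.92 and 8.26 in diplotene and 10.94, 10.66, 10.68 and 10.05 in round spermatid arrays, and its spermatid arrays all lay above diplotene. It rose by 2.49 (standard error 0.65, adjusted p = 0.00879). Tssk3 rose by 2.51, Tssk2 by 2.49, Tssk1 by 2.23 and Tsks, their substrate, by 2.15. Tssk6 was 2.05 (standard error 0.77, adjusted p = 0.0549) higher and Tssk5 1.90 (standard error 0.92, adjusted p = 0.133), and neither passed, though Tssk6 did with the array project as a block under either numbering (adjusted p = 0.0209 by equal signals). With the 6 arrays fitted alone Tssk6 passed as well (limma adjusted p = 0.0102). No kinase call stood without diplotene replicate 1, 2 stood without diplotene replicate 2 and 3 without round spermatid replicate 1. Of 19 genes for ion channels and sperm signalling 8 rose and none fell (median 0.70). The pore subunits Catsper1 and Catsper3 of the sperm calcium channel rose by 2.49 and 2.74, Atp1a4, the sodium pump of sperm, rose by 2.63 and Tmc5, a transmembrane channel-like protein, by 2.65. Catsper2, another pore subunit singled out here, changed by 0.39 (standard error 0.65, adjusted p = 0.711). In the fit that omitted diplotene replicate 1, 2 of the 8 passed. Of 32 genes tied to the manchette, head shaping and transport 7 (21.9%) rose and 3 (9.38%) fell (median 0.18), beside 17.1% and 16.4% of all genes. The rises included Spatc1l (2.67), Tbc1d21 (2.52), the nuclear envelope gene Spag4 (2.42) and Klhl10 (2.28), an adaptor of a Cul3 ubiquitin ligase. Without diplotene replicate 1 the counts were 1 and 1. Of 24 glycolytic and mitochondrial genes 4 (16.7%) rose, near the share over all genes, and 1 (4.17%) fell (median 0.17). The retrogenes Aldoart1 and Aldoart2 rose by 2.17 and 2.29, Pkm, a pyruvate kinase gene, by 1.62, while Ldhc, the germ cell lactate dehydrogenase, changed by -0.02 (standard error 0.45, adjusted p = 0.982). Of the 4 rises, 1 stood without diplotene replicate 1 and none without diplotene replicate 2.

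Regulators of spermatid transcription and chromatin split, 14 of 40 rising and 5 falling (median 0.34). Foxj1, the master factor of motile cilia genes, had 6.05 and 6.42 in diplotene and 9.27, 9.50, 9.46 and 9.24 in round spermatid arrays, with a wide gap between the groups and a rise of 3.13 (standard error 0.44, adjusted p = 0.000108). Hdac11, a deacetylase, had 4.69 and 6.95 in diplotene and 8.62, 10.23, 9.34 and 7.48 in round spermatid arrays and rose by 3.10 (standard error 0.61, adjusted p = 0.00142). Without diplotene replicate 1 the change of Hdac11 was 1.97. Sox5 rose by 2.72 and Rfx3, another factor of cilia genes, by 2.44. Rfx2, its relative, did not pass (-0.30, adjusted p = 0.737). Crem, the activator of many spermatid genes, was already high and overlapped, with 10.77 and 11.66 in diplotene and 10.97, 12.03, 12.57 and 11.95 in round spermatid arrays. Its change was 0.67 (standard error 0.76, adjusted p = 0.566), and that of Brdt, a bromodomain protein of spermatids, was 0.07 (standard error 0.39, adjusted p = 0.919). Mllt10, a cofactor of the histone methyltransferase Dot1l, fell by 1.97 (standard error 0.44, adjusted p = 0.00335). When diplotene replicate 1 was dropped, 8 of the list rose. Of 43 genes for storage, translation and processing of transcripts 7 (16.3%) rose and 6 (14%) fell, beside 17.1% and 16.4% of all genes. Their median was -0.05, like that of all genes. Celf6 rose by 2.93 and the X-linked Nxf2, an exporter of messenger RNA, by 2.23, while Msi2 fell by 2.38 and Dazl, the germ cell activator of translation, by 1.98. A weaker probe set of Msi2 rose by 1.36 (limma adjusted p = 0.0292), from a diplotene mean of 4.4, under log2 5, to a spermatid mean of 5.76. Cstf2, an X-linked cleavage factor, rose by 2.46, and its autosomal retrogene Cstf2t changed by -0.50 (standard error 0.31, adjusted p = 0.252). Without diplotene replicate 1, 5 rose and 3 fell.

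**Figure D2:**
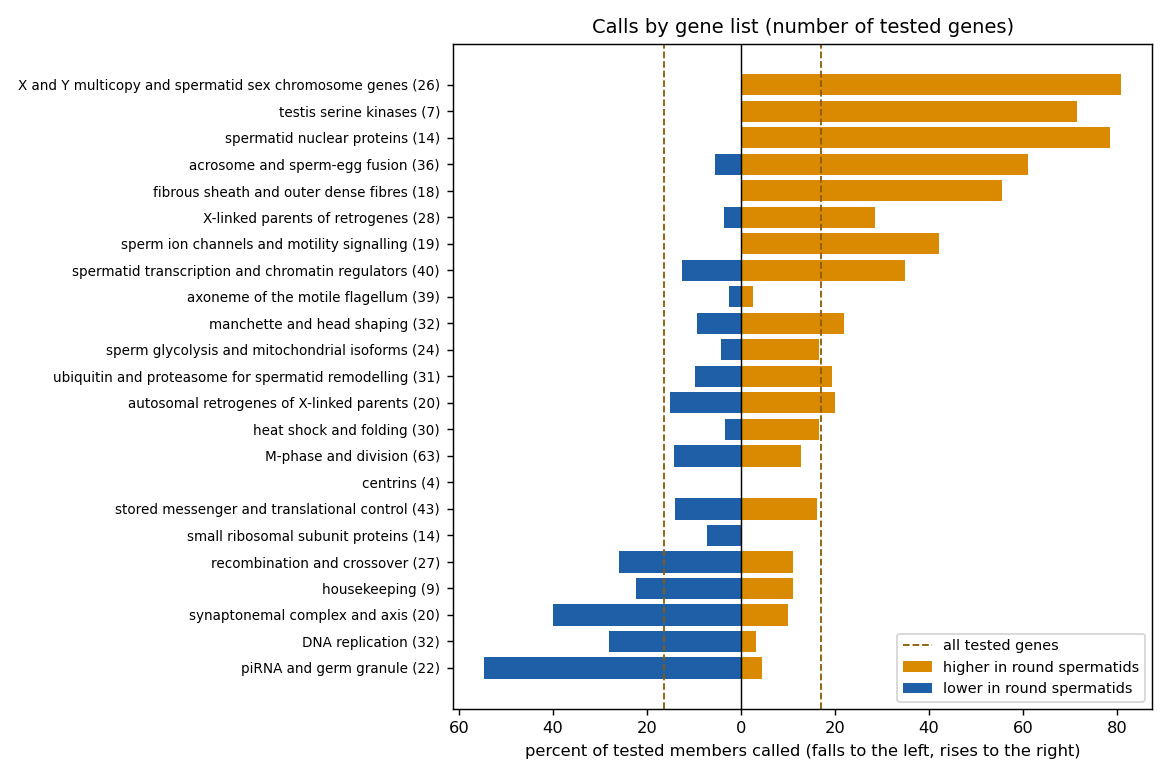
Percent of the tested genes in each list that rose (right) or fell (left) in round spermatids against diplotene, with dashed lines at the 17.1% and 16.4% of all tested genes. The lists of nuclear proteins, X and Y linked genes, kinases, acrosome and sheath reach farthest to the right, and the piRNA list farthest to the left.

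The piRNA pathway had the largest share of falls among the lists. Its proteins make the small RNAs that guard the germline genome and, in pachytene, act on other transcripts. Of 22 tested members 12 fell and 1 rose, with a median change of -1.05. Piwil1, the PIWI protein that binds pachytene piRNAs, had 13.52 and 13.31 in diplotene and 11.30, 11.55, 11.24 and 11.31 in round spermatid arrays. The groups were well apart, and it fell by 2.06 (standard error 0.37, adjusted p = 0.000758) from one of the strongest signals of the list. Tdrd5, a tudor protein needed for piRNA processing, had 10.38 and 10.55 in diplotene and 7.29, 8.07, 7.99 and 7.72 in round spermatid arrays and fell by 2.70 (standard error 0.44, adjusted p = 0.000378). Tex19.1, which restrains retrotransposons, fell by 2.42 (standard error 0.41, adjusted p = 0.000455), Piwil2 by 1.44 and the helicase Mov10l1 by 1.35. The exception was Gtsf1l, a paralogue of a PIWI cofactor, which rose by 2.22 (standard error 0.73, adjusted p = 0.0297), a call lost without either diplotene array (adjusted p = 0.164 without replicate 1 and 0.0918 without replicate 2) and without round spermatid replicates 1, 2 or 3. With diplotene replicate 1 left out, 8 of the list fell.

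Synaptonemal complex and chromosome axis genes fell in 8 of 20 cases and rose in 2 (median -0.59). Tex12, a central element protein, had 10.78 and 9.56 in diplotene and 8.43, 7.51, 6.52 and 6.49 in round spermatid arrays, a fall of 2.93 (standard error 0.46, adjusted p = 0.000274). Terb2, which ties telomeres to the envelope, fell by 2.34 and Sun1, the envelope protein of that link, by 2.18. Sycp3 of the lateral element fell by 0.89 (standard error 0.24, adjusted p = 0.011), while Sycp1 of the transverse filaments did not pass at -0.58 (standard error 0.31, adjusted p = 0.164). Rec8, the meiotic cohesin that holds sister chromatids until the second division, went the other way, with 7.17 and 6.90 in diplotene and 10.42, 10.10, 9.73 and 9.36 in round spermatid arrays. Every spermatid array was above diplotene, and Rec8 rose by 2.87 (standard error 0.46, adjusted p = 0.000318). The other rise was Smc3, a subunit shared by all cohesins, at 1.75. In the fit that omitted diplotene replicate 1, 5 of the list fell. Of 27 genes for recombination and crossing over 7 fell and 3 rose (median -0.38). Ccnb1ip1, the crossover factor HEI10, had 8.84 and 8.24 in diplotene and 4.56, 4.85, 4.36 and 4.74 in round spermatid arrays, so that spermatid signals lay below log2 5. It fell by 3.91 (standard error 0.24, adjusted p = 1.58e-07), and with values under 5 raised to 5 the change was -3.54. Topbp1, an activator of the checkpoint kinase Atr, fell by 2.26, Rad9b by 1.93 and Mlh3, which marks crossovers, by 1.43, and Tex15 rose by 1.78. Spo11, the maker of meiotic breaks, was lower by a margin that missed the test, at -1.36 (standard error 0.80, adjusted p = 0.223), and Dmc1, the meiotic recombinase, changed by -0.03 (standard error 0.39, adjusted p = 0.967). Of the 3 rises, 1 stood without diplotene replicate 1.

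Of 63 genes of the division phase 8 (12.7%) rose and 9 (14.3%) fell, with a median of 0.06, beside 17.1% and 16.4% of all genes. Cdk2 fell by 2.51 (standard error 0.48, adjusted p = 0.00108), the spindle checkpoint gene Mad2l1 by 2.40 (standard error 0.31, adjusted p = 7.08e-05) and Cks2, a cyclin-dependent kinase subunit required for male meiosis, by 2.35 (standard error 0.28, adjusted p = 3.25e-05). Its 2 diplotene arrays stood at 14.45 and 13.97, and all 4 spermatid arrays were below them. Cdc25c, the phosphatase that turns on Cdk1, rose by 2.11 (standard error 0.33, adjusted p = 0.000243), and Plk1, a mitotic kinase, by 1.45. Cdk1 itself changed by -0.18 (standard error 0.40, adjusted p = 0.783), and Ccna1, the meiotic cyclin, by 1.05 (standard error 0.75, adjusted p = 0.323). Hspa2, the chaperone of Cdk1 in spermatocytes, had 13.96 and 14.07 in diplotene and 13.52, 13.99, 13.95 and 14.73 in round spermatid arrays. Its groups overlapped. Without diplotene replicate 1, 3 rose and 4 fell. Of 32 genes for DNA replication 9 fell and 1 rose (median -0.60), with falls of 3.25 for the cyclin Ccne2, 1.54 for the ligase Lig1 and 1.45 for the licensing inhibitor Gmnn. The rise was Rrm2, a ribonucleotide reductase subunit, with 8.69 and 8.70 in diplotene and 10.63, 10.61, 10.47 and 10.67 in round spermatid arrays and a change of 1.90 (standard error 0.32, adjusted p = 0.000488). After diplotene replicate 1 was left out, 2 of the list fell.

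Lists of general cell functions had medians between -0.43 and 0.12. Over all genes 17.1% rose and 16.4% fell. Of 14 small ribosomal proteins 1 fell and none rose (median -0.25), the member being Rps3 at -0.69. Its call was lost without diplotene replicate 1 (change -0.44), without round spermatid replicate 3, with the 6 arrays fitted alone and with arrays centred on their medians. Of 30 chaperones 5 (16.7%) rose and 1 (3.33%) fell (median 0.07), and the rises included the testis forms Calr3 (3.08), Pdilt (2.37) and Dnajb7 (2.36). Of 31 ubiquitin and proteasome genes 6 (19.4%) rose and 3 (9.68%) fell (median 0.12), with rises of Rnf133 (2.55), Rnf151 (2.50) and Ube2a (2.27). None of the 5 chaperone rises and 2 of the 6 ubiquitin rises stood without diplotene replicate 1, and 2 and 3 of them stood without diplotene replicate 2. Of 9 common reference genes 1 rose and 2 fell (median -0.43). Actb, beta actin, rose by 0.81 (standard error 0.21, adjusted p = 0.00929) and Polr2a, the large polymerase subunit, fell by 0.80 (standard error 0.21, adjusted p = 0.00916). The calls of Actb and Polr2a were lost without diplotene replicate 1. Tfrc, the transferrin receptor, had 9.69 and 10.19 in diplotene and 7.16, 6.69, 6.52 and 5.54 in round spermatid arrays, without overlap, and fell by 3.46 (standard error 0.40, adjusted p = 3.2e-05).

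Among genes that passed the filter, rises were more than 3 times as frequent on the X chromosome as on the autosomes. Of 250 tested X-linked genes 134 (53.6%) rose and 1 fell, with a median change of 1.58 and quartiles of 0.12 and 2.40, against 16.1% of 9985 autosomal genes rising, 16.8% falling and a median of -0.07. Among single autosomes the share that rose ran from 12.2% on chromosome 11 to 20.6% on chromosome 16. The median of X-linked signals was 5.82 and 4.94 in diplotene arrays and 7.21, 6.46, 6.53 and 5.98 in round spermatid arrays, so the groups did not overlap. The autosomal medians, 8.55 and 8.39 against 8.50, 8.59, 8.53 and 8.27, did. In diplotene 40.8% of the X-linked genes had a mean under log2 5, where a signal is near background, and with values under 5 raised to 5 the median change was 0.86. The filter kept 250 of 617 X-linked genes on the array, and a gene high in round spermatids alone passes it. With the filter set on all 20 arrays, 145 of 548 X-linked probe sets rose, against 151 of 301. Their median change was then 0.29 rather than 1.27, beside -0.10 over all probe sets of that filter. Within the 2 array projects the X median was 1.51 and 1.81, beside autosomal medians of -0.13 and 0.04. Counted by probe set, 152 of 301 X-linked probe sets were called and 151 of them rose, 105 were called without diplotene replicate 1, and without diplotene replicate 2 there were 101, 96 of them rises. The lone X-linked fall, Hmgb3 at -1.02 (standard error 0.35, adjusted p = 0.0372), lost its call in 8 alternatives.

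**Figure D3:**
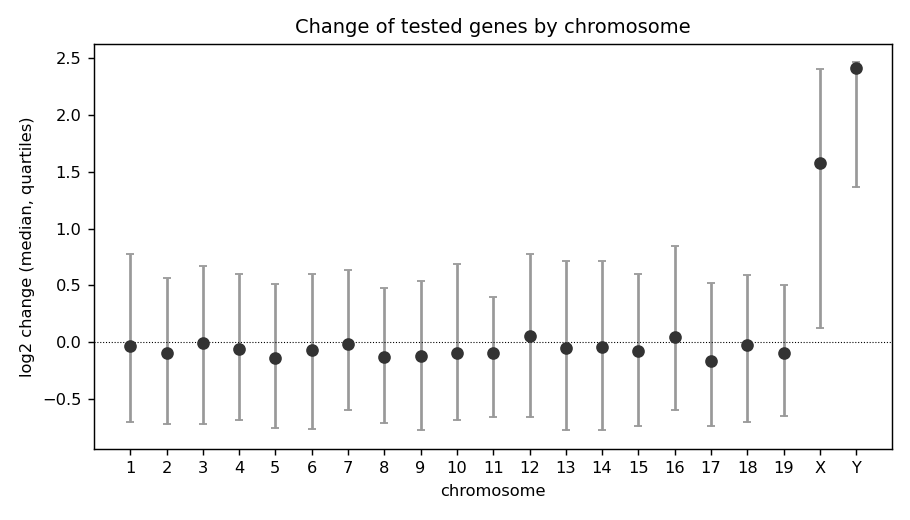
Change from diplotene to round spermatids (log2) by chromosome, with points at the median and bars from the first to the last quartile of the tested genes. The X chromosome has a median of 1.58, while the autosomes lie near their joint median of -0.07 and Y stands for 5 genes.

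Named X-linked genes rose from different starting levels. The 6 with the largest rises after values under 5 were raised to 5 included Tcp11x2, with 6.07 and 6.14 in diplotene and 9.61, 9.16, 9.21 and 8.43 in round spermatid arrays and a rise of 7.97-fold (adjusted p = 0.00708), and Fthl17a, a ferritin-like gene of germ cells, which rose by 2.99 (standard error 0.51, adjusted p = 0.000498), or by 2.88 with that floor. The call of Tcp11x2 was lost without diplotene replicate 1 (adjusted p = 0.0614). Ribc1, a protein of axonemal doublets, rose by 2.84, Efhc2, another, by 2.81, and Fam47c and 4933436I01Rik by 2.85 and 2.83. Of 26 tested X and Y genes known for expression after meiosis 21 rose and none fell (median 2.28). Cul4b, an X-linked ubiquitin ligase scaffold, had 7.55 and 7.18 in diplotene and 10.17, 9.75, 9.57 and 9.59 in round spermatid arrays, with no overlap and a rise of 2.41 (standard error 0.30, adjusted p = 5.14e-05). Prdx4, a peroxidase of the endoplasmic reticulum, had 9.23 and 8.88 in diplotene and 10.87, 10.86, 10.85 and 10.29 in round spermatid arrays and rose by 1.66 (standard error 0.37, adjusted p = 0.00336). Akap14 rose by 2.56 and Piga, the first enzyme of GPI anchor synthesis, by 2.65. On the Y chromosome, Eif2s3y, an initiation factor subunit, rose by 2.55 and Zfy2, a zinc finger gene needed for spermatid development, by 2.42. With diplotene replicate 1 left out, 12 of the list rose, and without diplotene replicate 2, 13.

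Of 28 X-linked parents of autosomal retrogenes 8 rose and 1 fell, with a median of 0.77. The deubiquitinase gene Usp9x rose by 2.56, Utp14a by 2.53 and Prps1, of nucleotide synthesis, by 2.20. Of 20 tested members of the list of autosomal retrogenes and related copies, called retrogenes here, 4 (20%) rose and 3 (15%) fell (median 0.09). Over all genes 17.1% rose and 16.4% fell. Dynlt3, a dynein light chain gene in that list that itself lies on the X chromosome, rose by 2.42. The autosomal Rbmxl1 fell by 1.30, Chml by 1.65 and Hnrnph1 by 1.44. With the array project as a block 14 of the parents rose and 1 fell, and with the projects by replicate names 8 rose and 2 fell. Of the 4 risen retrogenes 2 passed without either diplotene array, and the fall among the parents, Hmgb3, was lost without either diplotene array and without round spermatid replicates 2 or 3. Pgk2, the retrogene of X-linked Pgk1, was 1.20 (standard error 0.64, adjusted p = 0.179) higher and did not pass.

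Across the 8 fractions the X-linked genes that rose were lowest, by their median, in late-pachytene, a fraction with a single array. For the 134 rises the median of fraction means was 7.56 in spermatogonia, 6.75 in pre-leptotene, 6.61 in leptotene-zygotene, 6.79 in early-pachytene, 6.11 in mid-pachytene, 4.67 in late-pachytene, 5.40 in diplotene and 7.73 in round spermatid arrays. The 115 X-linked genes not called went from 8.94 in spermatogonia to 5.76 in late-pachytene, 5.18 in diplotene and 5.26 in round spermatid arrays. Of the 134, 69 were highest in round spermatids and 55 lowest in late-pachytene, while 26 were lowest in pre-leptotene and 13 in leptotene-zygotene. In diplotene their median signal was 18.7% and 18.3% of the spermatid mean in the 2 arrays, and that of the nuclear protein list, which is mostly autosomal, was 21.6% and 20.9%. The 134 were picked as rises, each with a change of at least 1, so this low share follows in part from the call. So do their high place in round spermatids and the near-equal last levels of genes not called. The nuclear protein list holds its tested members whether called or not, so the shares are not like for like.

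**Figure D4:**
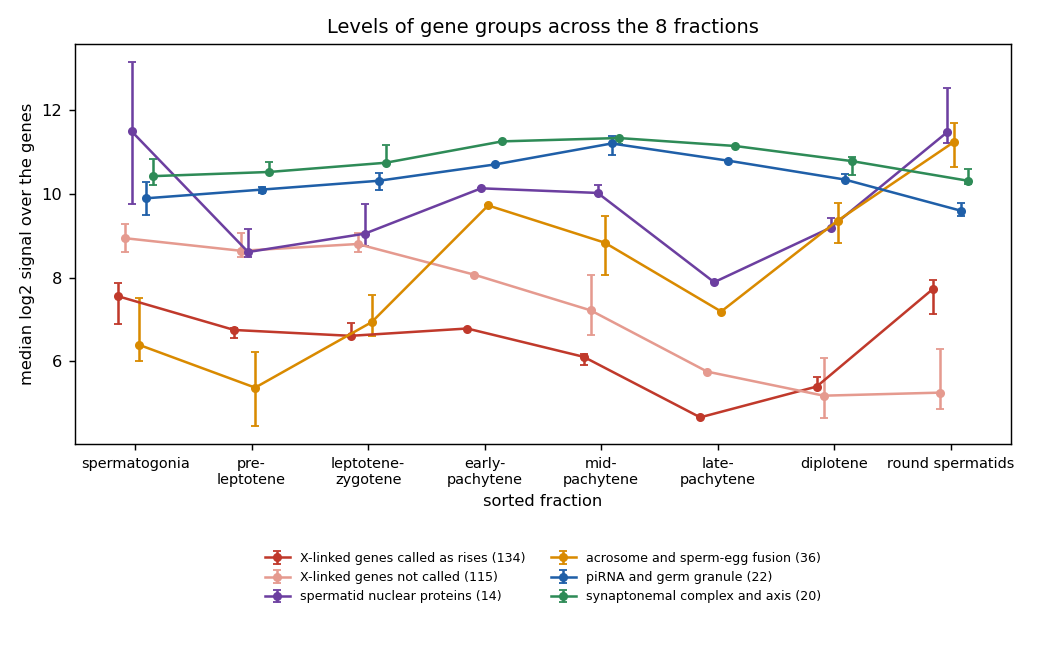
Median log2 signal across the 8 sorted fractions for 6 sets of genes, with points at the median of fraction means and bars over the range of array medians. Early- and late-pachytene have a single array each and so no range. The X-linked rises fall from 7.56 in spermatogonia to 4.67 in late-pachytene and reach 7.73 in round spermatids, whereas X-linked genes not called end at 5.26. Both X-linked sets were split by the call between diplotene and round spermatids, which in part sets their last step.

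By the ranking used for naming genes, the largest rises over all tested genes lay mostly outside the lists. That ranking took a gene by its called probe set of largest change, which need not be its strongest. The strongest probe sets of Lrrc18 and Lrp2bp rose by 2.25 and 2.39. Nutm1, a testis gene that recruits the acetyltransferase p300, had 5.33 and 6.39 in diplotene and 9.33, 9.18, 9.42 and 9.22 in round spermatid arrays and rose by 3.43 (standard error 0.32, adjusted p = 8.79e-06). Fam110a rose by 3.42, Lrrc18 by 3.39, Nr4a1, an orphan nuclear receptor induced early on stimulation, by 3.39, 1700007E05Rik by 3.37, Fam187b by 3.32, Lrp2bp by 3.31, Mroh9 by 3.47, Amer2 by 3.29, Adam34 by 3.16 and Prss52 by 3.16. Of these, 1700007E05Rik lost its call without diplotene replicate 1 (change 2.04, adjusted p = 0.159). The rise ranked with them that belongs to a marker list was Dcn, decorin, a matrix protein of connective tissue, with 5.23 and 4.22 in diplotene and 8.07, 9.08, 8.87 and 8.68 in round spermatid arrays. It rose by 3.95 (standard error 1.17, adjusted p = 0.0176), was 10.40 in spermatogonia and 3.77 in late-pachytene, and lost its call without diplotene replicate 1 (adjusted p = 0.0652), without replicate 2 (0.119) and with the array project by equal signals as a block (0.0689), though not by replicate names. Col1a2 and Tagln of the same list of Leydig and peritubular markers rose by 2.82 and 1.74, and neither call stood without either diplotene array.

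Among the largest falls, Rnf2, a Polycomb ubiquitin ligase, had 9.94 and 9.03 in diplotene and 7.34, 6.17, 4.39 and 5.07 in round spermatid arrays and fell by 3.74 (standard error 0.56, adjusted p = 0.000197). Dnajc3, a chaperone of the endoplasmic reticulum, had 9.82 and 10.26 in diplotene and 7.01, 7.04, 6.19 and 5.89 in round spermatid arrays and fell by 3.51 (standard error 0.39, adjusted p = 2.29e-05), with all 4 of its tested probe sets called down. Tmem30c fell by 4.11, 4921525O09Rik by 3.69, 4931408D14Rik by 3.60, Zfp389 by 3.55 and Kbtbd6 by 3.51, beside Ccnb1ip1 and Tfrc above. The strongest probe set of Tmem30c was lower by 1.63 but not called (limma adjusted p = 0.119). Those of 4921525O09Rik, AI467606 and Dnajc3 fell by 3.13, 2.81 and 1.49. Elfn2, Tm2d3 and AI467606 also fell and had round spermatid arrays under log2 5, and with values under 5 raised to 5 their changes were -3.83, -3.70 and -3.51, and that of Rnf2 was -3.59. None of these named falls overlapped between the groups, as the rule required, and 4921525O09Rik lost its call without diplotene replicate 2 (adjusted p = 0.0591). Id4, listed as a marker of spermatogonia, was stronger in late-pachytene at a mean of 12.18 and fell by 2.26 (standard error 0.62, adjusted p = 0.0111) from diplotene.

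**Figure D5:**
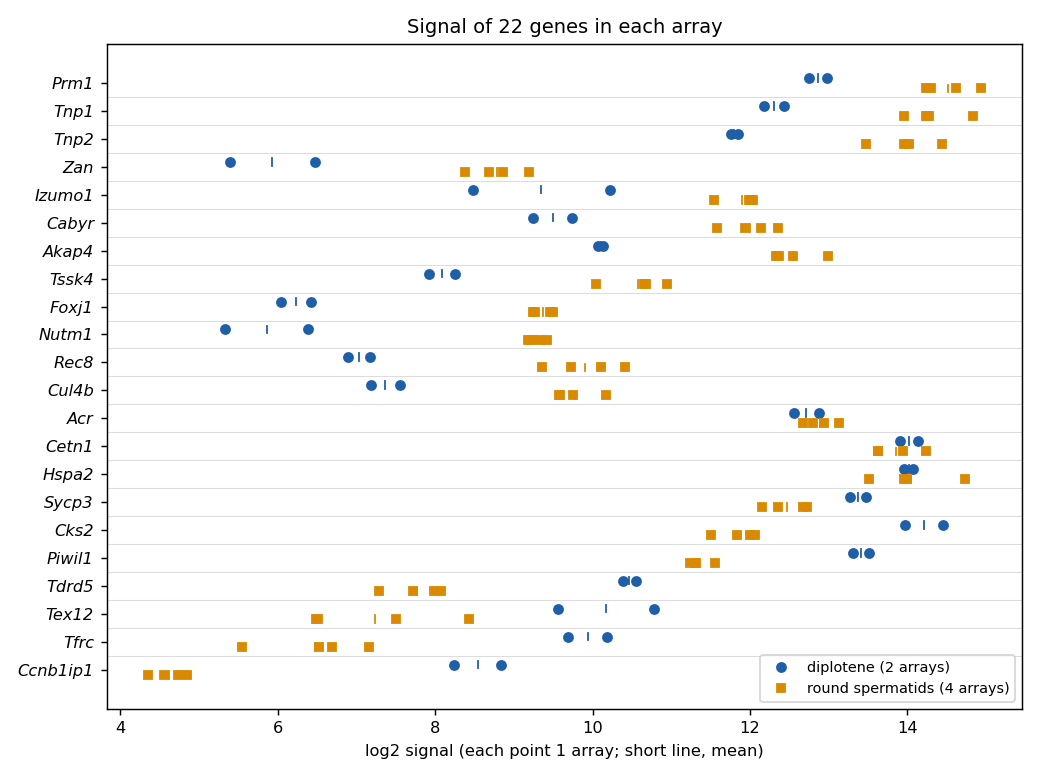
Log2 signal of 22 named genes in the 2 diplotene and 4 round spermatid arrays, with points for arrays and short lines for group means. Foxj1, Nutm1 and Rec8 sit higher in every round spermatid array, Ccnb1ip1, Tfrc and Tex12 lower, and Acr, Cetn1 and Hspa2 overlap.

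Probe sets that changed at this step peaked in different fractions. Early- and late-pachytene have a single array each, so their values are more easily extreme than the means of the other fractions. Of the 2556 rises 1928 were highest in round spermatids, 277 in pre-leptotene and 228 in spermatogonia, and none of the others reached 100 per fraction. Of the 3156 falls 1189 were highest in late-pachytene, 675 in pre-leptotene, 380 in diplotene and 337 in spermatogonia, and 2032 were lowest in round spermatids.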

How the data were processed

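From RNA labelled with oligo-dT primers, the authors made the deposited signal intensity in GeneSpring by GC-RMA, in a version the sources used here do not give, as linear values for 45037 probe sets on 20 arrays. After a log2 transformation, 1 linear model over all arrays with a mean for each of the 8 fractions was fitted in limma 3.58.1 (R 4.3.3), with eBayes and 12 residual plus 3.47 prior degrees of freedom. The contrast of round spermatids minus diplotene was tested two-sided with Benjamini-Hochberg adjustment over the 18007 probe sets with log2 of at least 5 in at least 2 of the 6 arrays. Fractions with 1 array are thereby taken to vary like the rest. Of the probe sets 34945 carry 1 gene symbol in the platform annotation, 932 several and 9160 none, and only the first kind was named, with chromosomes, starts and promoters from RefSeq. Probe sets whose names end in s_at or x_at can also bind related transcripts. For arrays, their number limits the precision. The fit was tested on simulated data in which 100 of 18007 probe sets changed by 1 and 100 by 2, and it called 4% and 59% of these. Far fewer probe sets changed there than were called in the data, so these shares do not carry over directly. A gene that did not pass is not thereby shown to be unchanged.

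The comparison's members, the 30 gene lists and the rule for naming genes were chosen with earlier results of these data known. The rule named the 12 largest rises and 12 largest falls among called probe sets of 1 gene whose groups did not overlap and whose higher group had a mean of at least 7, ranked after values under 5 were raised to 5, and 6 of each among X-linked genes. In this ranking a gene was taken by its called probe set of largest change, not by that of highest mean signal. The rule also named all tested nuclear proteins, centrins and testis serine kinases, up to 4 called members of each other list, at most 4 more per list singled out for their known role, and Akap4, Prdx4, centrins and tektins. Alternatives changed the arrays fitted, the filter, a floor, the normalization, the variance prior, array weights, blocks by replicate number or array project, the array left out and the probe set that stands for a gene. Tables were made with pandas 2.3.3 and figures with matplotlib 3.10.9 under Python 3.11.15.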

Additional observations from a re-analysis of the deposited data

Results flagged for a closer look

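In 12 of 167 groups of 4 round spermatid arrays, 1 array lay apart from the other 3 by more than Dixon's critical ratio for groups of that size, which chance passes in about 1 of 20 groups. Replicate 1 stood above the others for H1f7 (ratio 0.903, 12.98 against 11.88, 11.89 and 11.98), Atp1a4 (0.934, 10.99 against 9.91, 9.84 and 9.90) and Lrrc18 (0.914, 10.31 against 8.83, 8.81 and 8.94), and for the median of the nuclear protein list (0.846, 12.52 against 11.27, 11.21 and 11.41). It stood below them for Izumo1 (0.906, 11.54 against 12.02, 12.04 and 11.99), 1700007E05Rik (0.918, 8.58 against 10.42, 10.59 and 10.49) and the median of the ubiquitin list (0.863, 11.32 against 11.54, 11.51 and 11.54). Replicate 4 was lowest for Chd5 (0.837, 7.72 against 8.72, 8.57 and 8.74), Tmem190 (0.857, 10.43 against the others at 12.11 to 12.39), Elfn2 (0.835, 3.53 against 6.35, 6.60 and 6.10) and Prdx4 (0.960, 10.29 against 10.87, 10.86 and 10.85). Replicate 3 was lowest for Topbp1 (0.858, 7.41 against 8.12, 8.12 and 8.02). Among these 10 genes, H1f7 was the one whose call was lost without the array that lay apart, at a change of 1.95 (limma adjusted p = 0.0502).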

How the results depend on the processing

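The count of called probe sets stayed between 4309 and 7500 in the 13 other fits that kept all 6 arrays, and ran from 2756 to 5578 when 1 of the 6 was left out. Without diplotene replicate 1 it was 2756. The X-linked count ran from 122 to 178 with all 6 arrays and from 101 to 152 with 1 left out, 101 being the value without diplotene replicate 2. No named gene was called in the opposite direction in any fit. Median centring raised all changes by about 0.17 and turned the median of the list for storage and translation from -0.05 to 0.12 and the changes of Cetn1, Cetn3 and Tekt5, none of them called, to values above 0. Of 122 named and called probe sets 66 kept their call in every alternative, 47 lost it without diplotene replicate 1, 28 without diplotene replicate 2 and 17 with no filter on low values. With the replicate number as a block 7303 probe sets passed and 163 X-linked ones, but the groups share only the numbers 1 and 2. Deviations from group means correlated at 0.66 for number 1, whose arrays also share a project, and at 0.05 for number 2, whose arrays do not, against 0.51 for the other pair of a shared project, so the numbers were not taken to pair the samples. Of 122 calls, 1 was lost under that block. The array project as a fixed block gave 6807 calls, 178 of them X-linked, and turned the medians of the lists for the axoneme (0.19 to -0.09), glycolysis (0.17 to -0.19), autosomal retrogenes (0.09 to -0.28), ubiquitin (0.12 to -0.13), chaperones (0.07 to -0.18), centrins (0.06 to -0.11) and division (0.06 to -0.02). Within a project each group has 1 array, so there a change is a value with no test. The 2 diplotene arrays, and signals near background in diplotene for 40.8% of X-linked genes, limit the precision of single changes.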

Other observations

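Families of genes read from their symbols, chosen after values were seen, ran in both directions, beside 17.1% rises and 16.4% falls over all tested genes. Of 20 tested Spata genes, named for spermatogenesis, 10 rose and none fell (median change 1.98), and of 34 Tex genes, named for expression in testis, 13 rose and 5 fell (1.54). In 3 series of genes known only by RIKEN clone names, 59 of 158, 32 of 65 and 70 of 149 rose. In the same series 5, 4 and 12 fell, and these counts do not speak for other series of such names. Of 22 collagen genes 9 rose and 1 fell (1.21); the part of connective tissue cells in this, whose markers Dcn and Col1a2 also rose, was not tested. Falls outnumbered rises among 24 genes of RNA polymerase subunits (Polr, 8 fell, 1 rose, median -0.68), 46 and 29 genes of the mitochondrial ribosome (Mrpl, 9 or 19.6% fell and 1 rose, and Mrps, 7 fell and 1 rose) and 31 Rbm genes of RNA binding proteins (11 fell, 4 rose).

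Of 3736 genes with at least 2 tested probe sets, 65 had probe sets called in opposite directions. Tor1aip1, a nuclear envelope protein gene, had 1 probe set that rose by 2.00 (limma adjusted p = 0.00205) from a mean of 9.22 to 11.22 and another that fell by 2.94 (0.0011), from 8.27 to 5.33. Sox6 had 1 that rose by 1.68 (0.00147) and 1 that fell by 1.96 (0.00411). Gpd2, a mitochondrial glycerol phosphate dehydrogenase, had a rise of 1.97 (0.013) on a probe set with a spermatid mean of 12.71 and a fall of 1.92 (0.00584) on one with 4.60.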
